A study of Mus musculus with 2 samples.

Results

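The unfolded protein response and the integrated stress response were examined through 10 genes in microglia sorted from sham-operated mice. The genes were Hspa5, Hsp90b1, Xbp1, Atf4, Atf6, Ddit3, Ern1, Eif2ak3, Ppp1r15a and Trib3, taken by symbol as sensors, chaperones and ATF4 pathway genes of endoplasmic reticulum (ER) stress. No measured value entered the rule, although earlier results of these data were known when the genes were chosen. They were 10 of the 53801 Ensembl genes in each count table, and their symbols belonged to 11 identifiers, because a second Ddit3 identifier of 105 exonic bases was listed with 0 counts in both libraries. Both libraries were bulk RNA-seq of CD11c–Ly6G–CD11b+CD45low cells from the left hemisphere, collected 3 days after sham surgery, each from 1 mouse of genotype Cx3cr1(CreER/wt) on a C57BL/6 background. In such mice 1 allele of Cx3cr1, a gene expressed in microglia and in other mononuclear phagocytes, drives a Cre recombinase that tamoxifen activates, and they served as the wild-type background of the study. Both mice had been injected with tamoxifen at 75 mg/kg per day for 4 days, starting 14 days before surgery, so Cre activation and the drug are shared by all cells described here. The titles name the libraries as sham, whereas their treatment label reads none. The series' design text describes males of 8 to 10 weeks, whereas the study's methods give an older range and both sexes. The libraries of the stroke arm were not analysed here, so no condition was compared and no p-value is given.

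Proteins that fold in the ER are watched by 3 membrane-spanning sensors, IRE1α (Ern1), PERK (Eif2ak3) and ATF6 (Atf6), which are held inactive by the chaperone BiP (Hspa5) until unfolded protein accumulates. IRE1α then splices Xbp1 mRNA, ATF6 is cut in the Golgi to release a transcription factor, and PERK phosphorylates eIF2α, which slows general translation while favouring that of ATF4. ATF4 drives genes of amino acid supply, together with Ddit3 (CHOP), Trib3 and Ppp1r15a (GADD34), and GADD34 closes the loop by directing a phosphatase to eIF2α. Microglia are professional phagocytes with a large secretory and lysosomal output, and they use this machinery at rest as well as under injury. Counts per gene do not show splicing of Xbp1, cleavage of ATF6 or phosphorylation of eIF2α, so the values below are mRNA levels and not pathway activity.

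Library 1 held 23381026 counts on genes and library 2 held 41142609, and 13445 genes had at least 10 counts in both libraries (termed counted). Levels are given as CPM, counts scaled to 1000000 counts on genes, with an exact Poisson 95% interval that covers counting error only, and as mean ± SD over the 2 mice. All 10 microglia markers examined were counted, at a summed level of 40301 CPM in library 1 against 47521 CPM in library 2. The 10 markers of immature neutrophils were all counted as well, although the gate excludes Ly6G, with a sum of 2206 CPM in library 1 against 35560 CPM in library 2, and the 9 markers of mature neutrophils summed to 3430 and 30190 CPM. In bulk samples, fewer cells of a type and less RNA per cell cannot be told apart.

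Both chaperone genes of the set were abundant, and each differed by less than 1.5-fold between the mice on the CPM scale. Hspa5, which encodes BiP (chromosome 2 of GRCm38, 34771970 to 34777547, plus strand), had 51226 counts or 2191 CPM in library 1 (95% interval 2172 to 2210) and 75478 counts or 1835 CPM in library 2 (1821 to 1848). Its mean of 2013 ± 252 CPM (SD, n = 2) placed it at percentile 99.6 of mean CPM among counted genes. Hsp90b1, which encodes the ER-resident HSP90 paralog GRP94 (chromosome 10, 86690209 to 86705509, minus strand), had 14543 counts or 622 CPM in library 1 and 18706 counts or 455 CPM in library 2, a mean of 538 ± 118 CPM (SD, n = 2). Library 1 was the higher of the 2 for both chaperones, by 1.37-fold for Hsp90b1 and by 1.19-fold for Hspa5, whose direction reversed with DESeq2 size factors and after adjustment for GC content and length (log2 0.02 and 0.05).

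The promoters of these chaperones hold the ER stress response element (ERSE), the site through which ATF6 and XBP1 act together with NF-Y. The sequences are shown because, of the 9 of these 10 genes with a window, only the 2 chaperone genes held its exact letters. Sites that depart from those letters were not sought. RefSeq promoter windows of GRCm38.p6, from 250 bases before to 50 bases after a gene start, were at hand for 9 of the 10 genes, and Atf6 was not searched. The letters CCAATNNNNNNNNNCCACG were searched on both strands. They occurred in 39 of 32851 windows (0.119%), and among the 9 genes in Hspa5 and Hsp90b1 only. Each line below reads 5′ to 3′ along the gene, with the element in capitals and 10 flanking bases on either side. Distances are counted from the RefSeq start, which lies 120 bases inside the GENCODE span given above for Hspa5 and 65 bases inside it for Hsp90b1. The last of the lines holds the element on the opposite strand.
Hspa5, chr2:34772015-34772053, plus strand, element from 65 to 47 bases before the start: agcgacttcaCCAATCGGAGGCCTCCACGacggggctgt
Hsp90b1, chr10:86705628-86705666, minus strand, element from 212 to 194 bases before the start: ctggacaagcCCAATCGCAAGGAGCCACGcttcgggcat
Hsp90b1, chr10:86705523-86705561, minus strand, element from 107 to 89 bases before the start: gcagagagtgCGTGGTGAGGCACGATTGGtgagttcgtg

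Other stress elements were found in at most 1 of the 9 genes each. The core of the unfolded protein response element, TGACGTG, was found in 2.01% of all windows and among the 9 genes in Hspa5 alone, 157 to 151 bases before its RefSeq start. The C/EBP-ATF response element that ATF4 uses, written as TGATGNAA, was found in 3.97% of all windows and among the 9 genes only in Trib3, 14 to 21 bases after its RefSeq start, on the opposite strand. That start lies 28 bases before the GENCODE span of Trib3 given below. ERSE-II, read as ATTGG, any base and CCACG, occurred in 12 of 32851 windows and in none of the 9. The CCAAT box on its own, which forms part of ERSE, was in 37.4% of all windows and in those of Hspa5, Hsp90b1, Eif2ak3, Ddit3 and Atf4. A match describes letters in a short window and does not show binding.

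All 3 sensor genes were lower in library 2, each by more than 4-fold. Atf6 (chromosome 1, 170704674 to 170867771, minus strand) had 2258 counts or 96.6 CPM in library 1 (92.6 to 100.6) and 972 counts or 23.6 CPM in library 2 (22.2 to 25.2), which is 4.09-fold lower (95% counting interval 3.79 to 4.41). Ern1, which encodes the kinase and endoribonuclease IRE1α (chromosome 11, 106394650 to 106487852, minus strand), had 594 counts or 25.4 CPM (23.4 to 27.5) and 185 counts or 4.497 CPM (3.87 to 5.19), 5.65-fold lower (4.78 to 6.70). Eif2ak3, which encodes the eIF2α kinase PERK (chromosome 6, 70844515 to 70905245, plus strand), had 1017 counts or 43.5 CPM (40.9 to 46.3) and 392 counts or 9.53 CPM (8.61 to 10.5), 4.57-fold lower (4.06 to 5.14). The counting intervals of the 2 libraries did not overlap for any sensor, nor for any other gene of the set except Trib3. For the 3 sensors the spread between the mice was nearly as wide as the level itself. Their means were 60.1 ± 51.6 CPM for Atf6, 14.95 ± 14.8 CPM for Ern1 and 26.5 ± 24.0 CPM for Eif2ak3 (SD, n = 2).

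The transcription factors and feedback genes downstream of the sensors stayed within 1.5-fold between the mice on the CPM scale. Xbp1, the IRE1α substrate (chromosome 11, 5520659 to 5525893, plus strand), had 14168 counts or 606 CPM in library 1 and 23226 counts or 565 CPM in library 2, a mean of 585 ± 29.3 CPM (SD, n = 2). Atf4 (chromosome 15, 80255184 to 80257541, plus strand) had 2793 counts or 119 CPM and 5618 counts or 137 CPM, a mean of 128 ± 12.1 CPM. On this scale Xbp1 was thus nearly equal in both mice while Ern1, whose product splices it, was not. Their longest transcripts differ in length (2129 and 6946 bases). After the adjustment for GC content and length given below, the log2 ratios of library 2 over library 1 were −0.28 for Xbp1 and −1.29 for Ern1.

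Ddit3, which encodes the stress-induced factor CHOP (chromosome 10, 127290774 to 127296288, plus strand), had 568 counts or 24.3 CPM in library 1 and 1392 counts or 33.8 CPM in library 2, a mean of 29.1 ± 6.75 CPM (SD, n = 2). Ppp1r15a, which encodes GADD34 (chromosome 7, 45522916 to 45526268, minus strand), had 5064 counts or 217 CPM and 11317 counts or 275 CPM, a mean of 246 ± 41.4 CPM. For Atf4, Ddit3 and Ppp1r15a, library 2 was the higher of the 2 libraries on the CPM scale, by 1.14-fold, 1.39-fold and 1.27-fold. Trib3, a pseudokinase gene induced by ATF4 and CHOP (chromosome 2, 152337422 to 152344032, minus strand), was the rarest, with 49 counts or 2.10 CPM (1.55 to 2.77) and 61 counts or 1.48 CPM (1.13 to 1.90), a mean of 1.79 ± 0.434 CPM. Its counting intervals overlapped, so no difference between the mice was detectable for Trib3 at this depth.

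**Figure D1:**
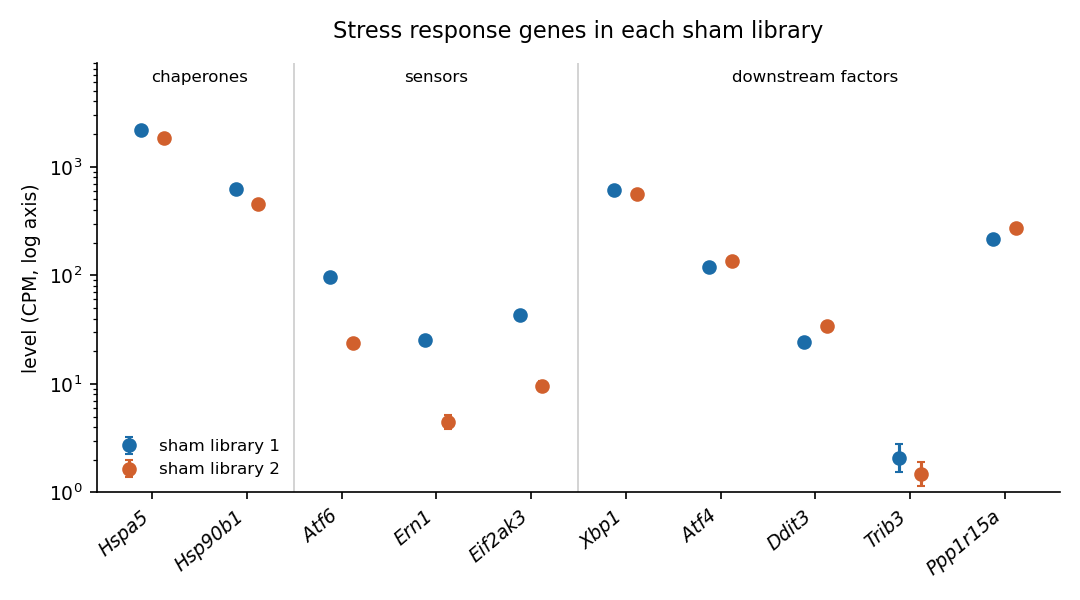
Level of each of the 10 genes in CPM on a log axis, with sham library 1 in blue and sham library 2 in orange; bars are exact Poisson 95% intervals, hidden by the point for most genes. Atf6, Ern1 and Eif2ak3 are 4.09-fold to 5.65-fold lower in library 2, whereas the other 7 genes lie within 1.5-fold.

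Differences of this size were common across the transcriptome of these 2 mice. Of the 13445 counted genes, 4257 (31.7%) were more than 2-fold apart, with 3485 (25.9%) lower in library 2 and 772 (5.74%) higher. Among the 10 stress genes, 3 were more than 2-fold apart, all of them lower in library 2 and all of them sensors, which as a share is close to the background. The median log2 ratio of library 2 over library 1 was −0.35 for the 10 genes and −0.26 for all counted genes. Only 6.52% of counted genes had a lower ratio than Atf6, 4.96% than Eif2ak3 and 2.72% than Ern1, whereas Hspa5 lay in the middle, with 50.3% below it. Ddit3, with 84.2% of genes below it, had the highest ratio of the 10.

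Transcript length moved with the ratio. Longest annotated transcripts measured 7246 bases for Atf6, 6946 for Ern1 and 4513 for Eif2ak3, against 969 to 3672 bases for the other 7 genes. When the counted genes were divided into 10 classes of equal size by length, the median log2 ratio was between −0.05 and 0.17 in the 5 classes of shorter transcripts and reached −1.05 in the class of longest transcripts (6440 bases or more), which holds Atf6 and Ern1. In that class 52.5% of genes were more than 2-fold lower in library 2. In the class of Eif2ak3 (4225 to 4970 bases) the median was −0.77 and 40.9% were lower. All 3 sensors lay below the lower quartile of their class, which was −1.64 for Atf6 and Ern1 and −1.53 for Eif2ak3.

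**Figure D2:**
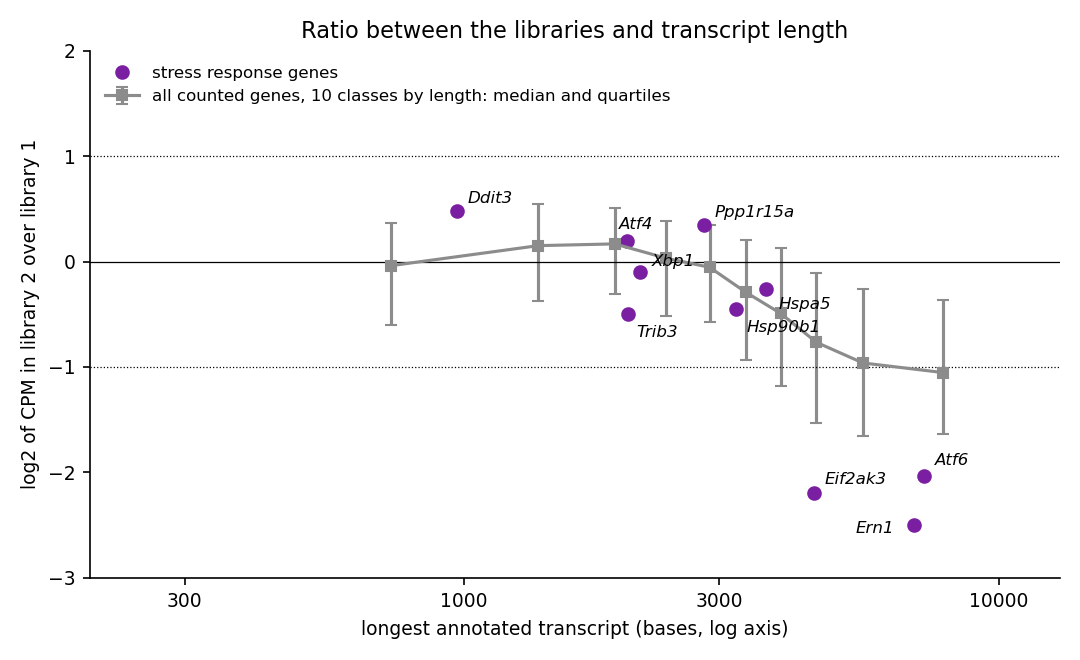
Log2 ratio of CPM in library 2 over library 1 against the length of the longest annotated transcript on a log axis. Purple points are the 10 stress genes, grey squares are the medians of 10 length classes of all counted genes with their quartiles, and dotted lines mark 2-fold; Atf6, Ern1 and Eif2ak3 sit at the long end and below the grey quartile bars.

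Subtracting from each ratio the median of genes of like GC content and length left the 3 sensors lower by a smaller margin. The adjusted log2 ratios were −1.02 for Atf6, −1.29 for Ern1 and −1.24 for Eif2ak3, in place of −2.03, −2.50 and −2.19, so Atf6 was then at the edge of the 2-fold limit. With this adjustment 12.7% of counted genes were more than 2-fold lower and 9.70% higher. Library sizes from TMM moved the median of all counted genes from −0.26 to −0.03 and the split of genes more than 2-fold apart to 2689 lower and 1138 higher, and the sensors then had −1.80, −2.27 and −1.96. Relative to the all-gene median on the CPM scale, Ddit3 was higher by 0.74, Ppp1r15a by 0.61 and Atf4 by 0.46 (log2). Across these scalings and the adjustment, Hspa5 (−0.26 to 0.05) and Xbp1 (−0.28 to 0.17) changed sign, whereas the other 8 genes kept theirs. The length-corrected unit used below (TPM) was not among them, and on it Atf4 was instead lower in library 2 (144 TPM in library 1, 133 TPM in library 2).

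**Figure D3:**
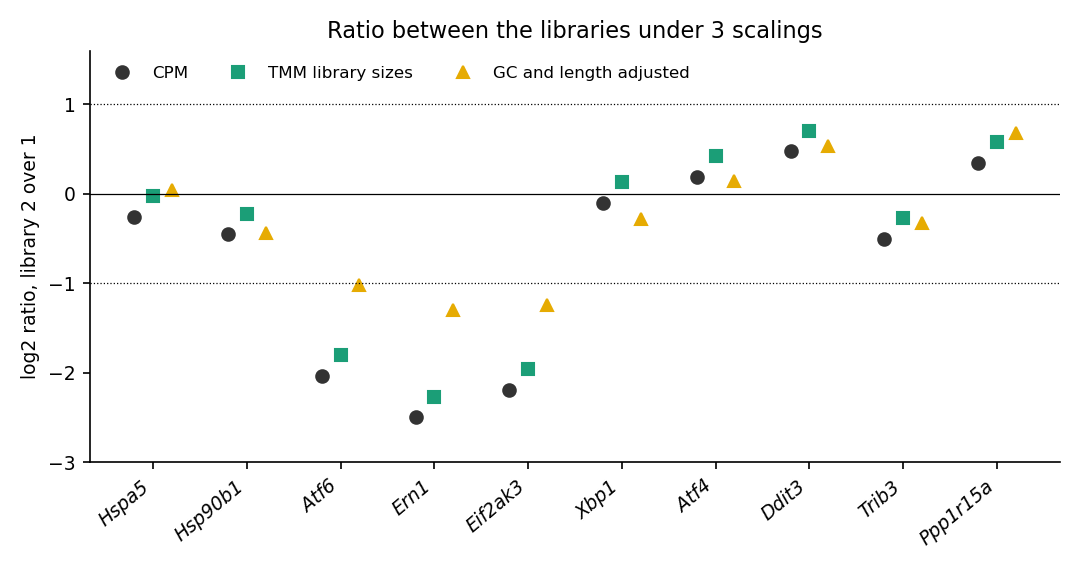
Log2 ratio of library 2 over library 1 for each gene on the CPM scale (circles), with TMM library sizes (squares) and after adjustment for GC content and length (triangles), with dotted lines at 2-fold. The 3 sensors stay below the lower line under all 3, with Atf6 at −1.02 after adjustment, and Hspa5 and Xbp1 cross 0.

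To compare genes with each other, counts were divided by the length of merged exons and scaled to a fixed total per library (TPM, the usual length-corrected unit). The order from the highest mean was Hspa5 (1234 ± 339 TPM), Xbp1 (464 ± 93.6), Hsp90b1 (349 ± 128), Ppp1r15a (212 ± 3.45), Atf4 (138 ± 8.05), Ddit3 (42.8 ± 3.48), Atf6 (17.8 ± 16.9), Eif2ak3 (12.1 ± 11.96), Ern1 (5.05 ± 5.36) and Trib3 (2.20 ± 0.853; all SD, n = 2). Xbp1 and Hsp90b1 overlapped in their 2-library ranges, as did each neighbouring pair from Atf6 down to Trib3, so the gap between these neighbours was within the spread between the mice. Within each library, Xbp1 was above Hsp90b1, Atf6 above Eif2ak3 and Eif2ak3 above Ern1. Library 2 alone placed Trib3 (1.599 TPM) above Ern1 (1.26 TPM), the reverse of library 1 (2.81 and 8.84 TPM). For both chaperones the gap between the libraries was wider than in CPM. Hspa5 had 1474 TPM in library 1 and 994 TPM in library 2, and Hsp90b1 had 439 and 258 TPM.

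Ratios of TPM within a library show which proportions were held in both mice. BiP mRNA exceeded GRP94 mRNA by 3.36-fold in library 1 and by 3.85-fold in library 2, and Atf4 exceeded Ddit3 by 3.57-fold and 2.93-fold. Atf6 exceeded Ern1 by 3.37-fold and 4.65-fold, so the sensors also kept their order among themselves. Between chaperone and sensor the proportion was not held. Hspa5 exceeded Atf6 by 49.5-fold in library 1 and 169-fold in library 2, Eif2ak3 by 71.8-fold and 274-fold, and Ern1 by 167-fold and 788-fold. TPM divides a gene by the same length in both libraries, so the trend with transcript length described above remains in these changes. After adjustment for GC content and length, the log2 ratios of library 2 over library 1 were 0.05 for Hspa5, −1.02 for Atf6, −1.24 for Eif2ak3 and −1.29 for Ern1.

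**Figure D4:**
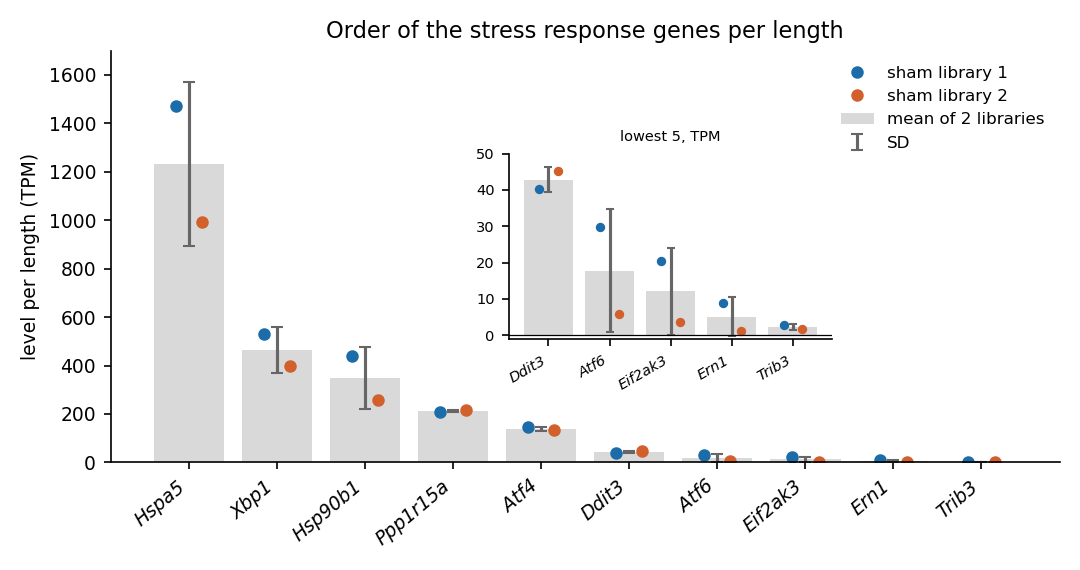
Level per length in TPM, ordered by mean: grey bars are the mean of the 2 sham libraries, error bars the SD, and points the libraries (blue, library 1; orange, library 2); the inset enlarges the lowest 5. Hspa5 stands at 1234 TPM, and the 3 sensors and Trib3 lie below 18 TPM in the mean.

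A further 7 lists of 104 genes placed these 10 in their pathways. Of the 96 genes counted, 25 were more than 2-fold lower in library 2 (26.0%), 2 were higher (2.08%) and 69 were neither, and their median log2 ratio was −0.27. Over all counted genes, 25.9% were lower, 5.74% were higher and the median was −0.26. After adjustment for GC content and length, 12 of the 96 were more than 2-fold lower and 4 were higher.

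Among the sensors' relatives and processing factors, 10 of 12 genes were counted, 4 of them lower and none higher. Atf6b, the paralog of Atf6, had 117 CPM in library 1 against 31.0 CPM in library 2, or 3.77-fold lower, and an adjusted log2 ratio of −1.33 in place of −1.91. Its longest transcript measures 2566 bases, and its GC content is in the highest of 10 classes, in which 39.5% of genes were more than 2-fold lower. Mbtps1, which encodes the site-1 protease that cuts ATF6, had 120.1 and 39.7 CPM, and Map3k5, which encodes the kinase ASK1 downstream of IRE1α, had 30.5 and 9.07 CPM. Both were within 2-fold after the adjustment, at log2 ratios of −0.39 and −0.67. Rtcb, the ligase that joins the Xbp1 exons after IRE1α has cut, was level at 159 and 144 CPM, as was the ATF6-like factor Creb3 at 169 and 198 CPM. The epithelial IRE1 paralog Ern2 had 0 counts in both libraries, for which a floor of 3 counts stands at 0.128 CPM in library 1 and at 0.0729 CPM in library 2, and Creb3l4 had 3 and 8 counts.

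In the list of ER chaperones and folding enzymes, all 20 genes were counted, 4 were lower and none higher, with a median log2 ratio of −0.46. Per length its leading genes were Pdia3, a disulfide isomerase of glycoprotein folding (1594 and 1347 TPM), Sdf2l1, an ER chaperone cofactor (1036 and 625 TPM), and P4hb, the archetypal disulfide isomerase (926 and 438 TPM). Hyou1, which encodes the BiP exchange factor GRP170, had 127 CPM in library 1 against 8.34 CPM in library 2, or 15.3-fold lower. The adjusted log2 ratio of Hyou1 was −2.98 in place of −3.93. The lectin chaperones Calr (988 and 333 CPM) and Canx (811 and 305 CPM) were 2.97-fold and 2.66-fold lower, and after the adjustment Canx was just within 2-fold (log2 −0.99).

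The ERSE letters were found in 5 of the 15 chaperone list genes that had a promoter window (Calr, Canx, Creld2, Dnajc3 and Pdia6), in 2 of 14 genes of ER-associated degradation (Derl3 and Syvn1), and in no window of the other 5 lists. Of the 9 ERSE genes counted, with Hspa5 and Hsp90b1 among them, 3 were more than 2-fold lower in library 2 (Calr, Canx and Syvn1) and the other 6 were within 2-fold. Over all counted genes, 25.9% were more than 2-fold lower. After the adjustment Canx and Syvn1 were within 2-fold too, at −0.99 and −0.96, whereas Calr stayed beyond it at −1.71.

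ER-associated degradation, which returns misfolded proteins to the cytosol, had all 18 genes counted, with 5 lower and none higher. Its leading genes per length were level between the mice, with 433 and 398 CPM for the stress-induced ubiquitin ligase scaffold Herpud1, 235 and 256 CPM for Selenos and 362 and 317 CPM for the ER lectin Os9. Lower genes were led by Edem3, a mannosidase-like factor (29.5 and 4.98 CPM), and Nploc4, a cofactor of the segregase VCP (92.9 and 19.2 CPM). Adjusted log2 ratios of these 2 genes were −2.04 and −1.44. ER translocation had 12 of 12 genes counted and 2 lower, Sec63 (61.2 and 22.2 CPM) and Sec61a1, which encodes the channel itself (345 and 164 CPM), with adjusted log2 ratios of −0.94 and −0.59, both within 2-fold. The signal peptidase subunit genes Spcs1 (134 and 154 CPM) and Spcs2 (439 and 533 CPM) and the translocon-associated Ssr2 (136 and 132 CPM) led that list per length.

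The other branch-point of the integrated stress response is eIF2 itself. The list for it held 12 genes, of eIF2, its exchange factor eIF2B, the eIF2 kinases other than Eif2ak3, and Ppp1r15b. All 12 were counted, with 3 lower and none higher. Ppp1r15b, the constitutive counterpart of Ppp1r15a, had 102 CPM in library 1 against 30.5 CPM in library 2, or 3.35-fold lower, while Ppp1r15a was 1.27-fold higher. After adjustment for GC content and length the log2 ratio of Ppp1r15b was −0.76 and that of Ppp1r15a 0.69. None of the 12 genes was then more than 2-fold apart, whereas the kinase gene Eif2ak3, outside the list, stayed beyond that limit at −1.24. Eif2ak4, which encodes the amino acid sensor GCN2, had 17.7 and 5.52 CPM, and Eif2s3x, which encodes the γ subunit of eIF2, had 12.8 and 6.27 CPM. Eif2s1, which encodes the phosphorylated subunit eIF2α, had 106 and 110.2 CPM, and the exchange factor genes Eif2b2 (53.0 and 69.5 CPM) and Eif2b4 (65.3 and 81.6 CPM) were likewise close.

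ATF4 target genes ran from 22.0-fold lower to 2.08-fold higher in library 2. Of 25 listed, 19 were counted, 5 were lower, 1 was higher and the median log2 ratio was −0.52. Atf3, a stress-induced repressor (414 and 714 CPM), Slc3a2, the heavy chain of amino acid exchangers (607 and 765 CPM), and Phgdh, the entry enzyme of serine synthesis (353 and 204 CPM), led per length. Slc7a5, the large neutral amino acid transporter that pairs with Slc3a2, had 144 CPM in library 1 against 6.54 CPM in library 2, or 22.0-fold lower. For Slc7a5 the adjusted log2 ratio was −3.65 in place of −4.46. Aldh18a1, an enzyme of proline synthesis (65.6 and 15.3 CPM), and Sesn2, a leucine-sensing stress protein (64.5 and 20.1 CPM), were also lower, and asparagine synthetase, Asns, was the higher one (11.3 and 23.6 CPM). Sesn2 and Asns were within 2-fold after the adjustment, at log2 ratios of −0.53 and 0.77. Genes not counted were Slc7a3, Vldlr, Cth, Fgf21, Stc2 and Trib2, and Fgf21 had 0 counts in both libraries.

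ATF4 and CHOP act as dimers with C/EBP factors, and these varied in both directions. Cebpa had 67.4 CPM in library 1 against 7.80 CPM in library 2, or 8.64-fold lower, and Cebpb had 7.66 and 2.04 CPM. Both stayed more than 2-fold lower after the adjustment, at log2 ratios of −2.53 and −1.92. Cebpe, a factor of granulocyte maturation, had 2.87 and 15.3 CPM, or 5.34-fold higher, as the neutrophil markers were. Cebpg, a preferred partner of ATF4, was level at 89.7 and 82.2 CPM, and Cebpd had 113 and 214 CPM, which passed 2-fold with TMM library sizes (log2 1.15) and after the adjustment (1.66).

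**Figure D5:**
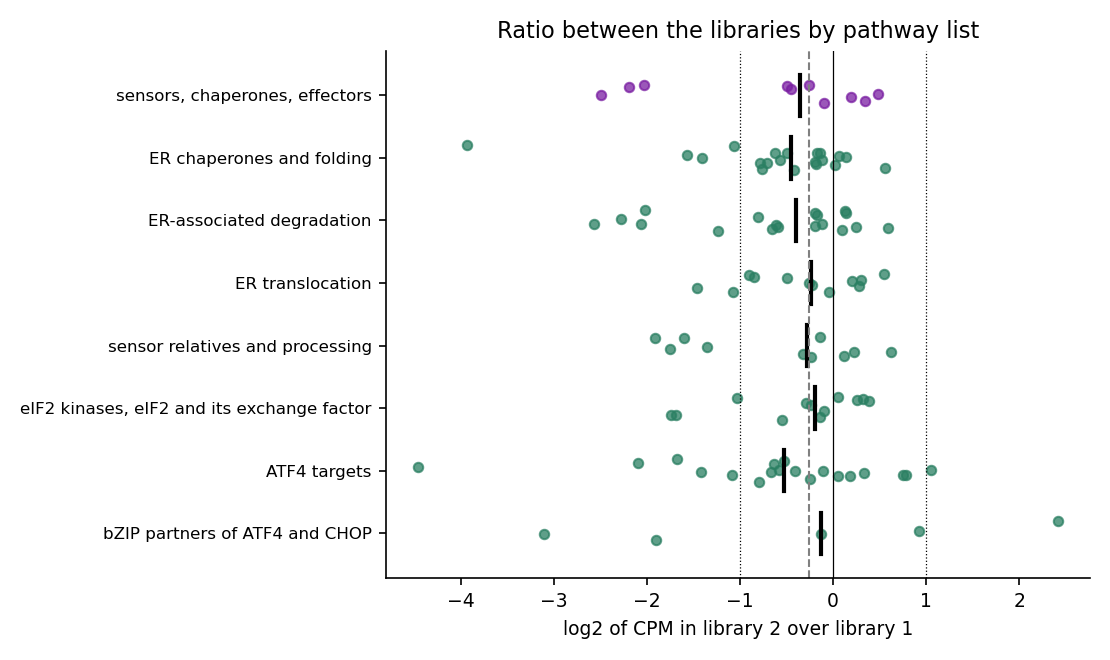
Log2 ratio of CPM in library 2 over library 1 for the counted genes of the 10-gene set (purple) and of 7 pathway lists (green). Black bars are list medians, the dashed line is the median of all counted genes (−0.26) and dotted lines mark 2-fold; every list but ER translocation reaches beyond −1.5, and 2 genes lie above 1.

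Neutrophil markers moved between the libraries too, and their part in the values above was not tested. They were more than 2-fold higher in library 2 for 10 of 10 immature and 7 of 9 mature genes, with none at 0 in either library. Leaving these genes out of the totals moved each log2 ratio of the 10 stress genes up by an equal amount, to −1.94 for Atf6, −2.41 for Ern1 and −2.10 for Eif2ak3, and to 0.57 for Ddit3. Plasma cells are a cell type with very high Xbp1, and of 10 plasma and B cell markers 4 were counted, with Jchain and Mzb1 at 0 counts in library 1 and at 3 and 9 counts in library 2. Of those counted, Tnfrsf17 was more than 2-fold higher in library 2 (12.3 and 26.5 CPM) and Prdm1 more than 2-fold lower (34.9 and 14.9 CPM). Ighm made up most of that list's sum of 571 and 767 CPM. Early response genes, which tissue dissociation can raise, went both ways. They summed to 19620 and 23313 CPM with a median log2 ratio of −0.10, and of the 16 genes 2 were more than 2-fold higher in library 2, Fos (2786 and 5980 CPM) and Dusp1 (1780 and 3668 CPM). Klf2 (196 and 30.4 CPM), Nr4a1 (139 and 34.3 CPM) and Fosb (29.4 and 11.98 CPM) were more than 2-fold lower, and their part in the values above was not tested.

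Reads of most of the 10 genes could be assigned to 1 gene only. No stretch of 75 bases, the read length, in the longest transcript of Hspa5, Xbp1, Atf4, Atf6, Ern1, Ppp1r15a or Trib3 recurred in another gene's GENCODE M21 transcript. Such stretches made up 7.02% of the Hsp90b1 transcript, 5.99% of that of Eif2ak3 and 3.46% of that of Ddit3. Hsp90b1 overlaps a pseudogene on the opposite strand with 192 and 328 counts, and Eif2ak3 overlaps an opposite-strand transcript with 20 and 8 counts. Ddit3 overlaps Mars on the opposite strand (4768 and 4628 counts) and Ppp1r15a overlaps Tulp2 (52 and 84 counts). Neither Mars nor Tulp2 held a 75-base stretch of the longest Ddit3 or Ppp1r15a transcript, and the stretches of Ddit3 recurred only in its second identifier, which had 0 counts. Other transcripts of these genes were not searched. The strand setting of the counting is not given in the sources used here. Reads from the stretches that Hsp90b1 and Eif2ak3 share with opposite-strand genes therefore cannot be told apart.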

How the data were processed

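Bulk RNA of sorted microglia from 2 sham-operated mice was sequenced. Per the study's methods, the SMART-Seq HT Kit served for cDNA and Nextera XT for libraries, read as pairs of 75 bases. The deposited values are raw counts per Ensembl gene without normalization, which the authors made by aligning reads to GRCm38 (HISAT2) and counting them (HTSeq). Versions, annotation release and strand setting are not given in the sources used here. Deposited starts count from 0 and are printed from 1.

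Symbols, merged exon lengths and transcripts came from GENCODE M21, which matched 53706 of 53801 identifiers. Where 2 identifiers shared a symbol, the one with more counts was used. CPM, TPM, exact Poisson intervals and conditional exact intervals of the ratio were computed in Python 3.11.15 with scipy 1.17.1, pandas 2.3.3 and numpy 2.4.6. Plots were drawn with matplotlib 3.10.9. A floor of 3 counts stands for 0. The 10 classes of GC content by 10 of length fell back to GC content alone under 20 genes. Scaling by TMM used edgeR 4.0.16, and size factors came from DESeq2 1.42.0 in R 4.3.3. The ratio and adjustment code was tested on simulated data. Intervals cover counting error only, since amplified reads are not independent molecules, and 2 mice limit every mean.

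The genes and lists were chosen with earlier results of these data known. Named pathway genes were the 3 of highest mean TPM in each list, up to 3 in each direction that were more than 2-fold apart with a mean of at least 100 counts, and genes not counted; some genes of these lists are not reported here. Genes named beside the ERSE letters, among the markers and overlaps, and as newly beyond 2-fold after the adjustment were chosen after their values were seen. Alternatives were other scalings, count minima, folds and lengths, and leaving out each library.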

Additional observations from a re-analysis of the deposited data

How the results depend on the processing

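No paired analysis was possible because both samples belong to 1 group. On the CPM scale the count of 3 genes more than 2-fold apart was the same at 1.5-fold and 3-fold and with other count minima. At 2-fold it was also the same with each scaling and after adjustment for GC content and length. After that adjustment all 3 sensors were short of 3-fold (log2 −1.02 for Atf6, −1.29 for Ern1 and −1.24 for Eif2ak3). The median log2 ratio of the 10 genes, −0.35 on the CPM scale, was −0.12 with TMM library sizes and −0.079 with DESeq2 size factors, which shift all genes alike. On other scales Ddit3 reached 0.71 (TMM) and 0.75 (DESeq2), and Ppp1r15a 0.62 (DESeq2) and 0.69 after the adjustment (log2). These values were past 1.5-fold and short of 2-fold. So were the gaps in TPM for Hsp90b1 (439 in library 1, 258 in library 2) and Trib3 (2.81 and 1.599). Both genes were lower in library 2. In TPM the mice were nearly equal for Ppp1r15a, and less close for Xbp1 than in CPM. Mean levels of the 10 genes moved by less than 1 SD under each scaling. For the 3 sensors the SD was nearly as wide as the mean, so a change of scaling could hardly pass that limit. Leaving out a library cannot move a mean of 2 by more than 1 SD, and is no evidence of stability. With 1 library left out, all 10 genes had at least 10 counts and 0 to 2 genes changed rank per length. With the median transcript length, 2 genes (Atf6 and Eif2ak3) exchanged ranks. Adjustment for GC content and length lowered the number of genes more than 2-fold apart from 4 to 2 for ER chaperones, from 5 to 3 for ER-associated degradation, from 2 to 1 for ER translocation (also 1 with TMM), from 4 to 2 for the sensors' relatives, from 6 to 4 for ATF4 targets and from 3 to 0 for the eIF2 list. It raised that number from 3 to 4 for the bZIP partners (also 4 with TMM). Eif2ak3 is not in the eIF2 list. These are net counts. Newly beyond 2-fold after the adjustment were Ssr3 (log2 −1.08), Creb3l1 (1.20), Slc7a11 (1.30) and Cebpd (1.66). Ssr3 belongs to ER translocation, where TMM instead left Sec63 (−1.23), Creb3l1 to the sensors' relatives and Slc7a11 to ATF4 targets. Depth limits Trib3 most, with 49 and 61 counts.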
